A study of Ovis aries with 2 samples.

Results

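EGR1, EGR2, EGR3 and EGR4 and NR4A1, NR4A2 and NR4A3 are 7 transcription factor genes of 2 families that cells switch on within minutes of a signal. They were taken from the expression tables by symbol, and all 7 were present among the 23141 genes of each table. The study profiled single cells from the anterior pituitary of Hu sheep at 6 months and at 3 months of age, and its title places the comparison around puberty. Each age was 1 library. The anterior lobe was separated from the posterior lobe by its appearance, digested with type IV collagenase, strained, freed of red blood cells and loaded on a droplet (Chromium) instrument. The labels give no treatment, genotype or sex, and do not say how many animals went into a library. With 1 library per age no statistical test between ages was possible. Intervals below are 95% limits for counting error, with each UMI (a uniquely tagged RNA molecule) treated as independent. They do not cover differences between animals, dissections or library preparations, which cannot be told apart from age here. No p-value is given.

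The EGR proteins are zinc-finger factors that bind GC-rich promoter sites, and NAB1 and NAB2 are corepressors that bind some of them. In gonadotrophs, the cells that make luteinizing and follicle-stimulating hormone, the hypothalamic peptide GnRH acts through its receptor GNRHR and a kinase cascade to induce EGR1. EGR1 then acts with NR5A1 and PITX1 on the promoter of LHB, the luteinizing hormone beta subunit gene. This is known mainly from mouse and rat cells. The NR4A proteins are orphan nuclear receptors that need no known natural ligand, and their level is set largely by transcription. NR4A1 is known in corticotrophs as an activator of POMC downstream of CRH. Genes of both families are also induced in many cell types by cutting, warming and enzymatic digestion of tissue, and in immune cells by activation. No sample here was kept from dissociation, so hormone signalling in the animal and tissue handling cannot be told apart directly.

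The 6-month library held 15031 cell barcodes with a median of 7434 UMIs, and the 3-month library 18961 barcodes with a median of 4361. After a filter of at least 500 genes and 1000 UMIs and removal of called doublets, 12633 and 15448 cells remained. The libraries shared 81 barcodes. Cells were grouped into 29 clusters without using hormone genes, the 7 genes or the handling genes described below, and were named from fixed marker genes. Markers matched the tissue label: clusters with gonadotroph, lactotroph, somatotroph, corticotroph and stem or folliculostellate markers were present, beside endothelial, fibroblast and immune cells. Clusters that failed the naming rule were left unnamed and outside the class levels. They held 2020 cells (15.99%) at 6 months and 6558 (42.45%) at 3 months. Stem or folliculostellate was the nearest class for unnamed clusters 2, 8 and 19, with 2787, 2095 and 400 cells at 3 months. The stem or folliculostellate-like class itself had 708 cells at 3 months. Gonadotroph-like cells numbered 261 at 6 months and 1190 at 3 months, with median depths of 18381 and 10965 UMIs. In them 8 of 11 gonadotroph markers had a UMI in each library, and FSHR, CNGA1 and ASTL were at 0. RNA of other cells was also present in them: 6 lactotroph markers summed to 58458 CPM (UMIs per 1000000 UMIs) at 6 months and 18089 CPM at 3 months. PRL, the prolactin gene, took 4.83% of UMIs in endothelial and immune cells at 6 months and 1.89% at 3 months. This share was taken as a measure of free RNA. It assumes that those cells make little PRL themselves and hold no undetected doublets, which was not tested.

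Every class showed RNA of these families, but each gene had its own order of classes. Levels are CPM of the class, and ranks are among the named classes with at least 50 cells in that library. The totals include hormone RNA. With hormone genes left out of them, lactotroph-like cells moved from rank 8 to 4 for NR4A1 at 3 months. They moved from 7 to 4 for NR4A2 at 6 months. Gonadotroph-like cells kept their ranks for EGR1 and moved from 5 to 4 for NR4A1 at 6 months. EGR1 was highest in stem or folliculostellate-like cells, at 108 CPM (104 to 112) at 6 months and 169 CPM (159 to 180.4) at 3 months. Gonadotroph-like cells had 17.2 CPM of EGR1 (13.7 to 21.4) at 6 months, the sixth of 9 classes. They lay below macrophage or monocyte-like cells at 27.9 and overlapped T or NK-like cells at 12.3. At 3 months gonadotroph-like cells had 57.7 CPM (53.8 to 61.9), the fifth of 10 classes, and overlapped cycling-like cells at 62.2 and corticotroph-like cells at 56.8. Lactotroph-like cells were low at both ages, at 8.70 and 6.43 CPM.

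EGR2 is known for its roles in hindbrain patterning, myelination and T cell tolerance. Among named classes it was highest at 6 months in stem or folliculostellate-like cells (95.1 CPM) and macrophage or monocyte-like cells (90.8 CPM). Their intervals overlapped. At 3 months macrophage or monocyte-like cells led with 164 CPM. EGR3, induced with EGR2 by antigen-receptor signalling, was highest in macrophage or monocyte-like cells, at 159 CPM (149.5 to 168) at 6 months and 242.5 CPM (229.9 to 256) at 3 months. T or NK-like cells came next for EGR3, at 64.0 and 119 CPM. Gonadotroph-like cells had 6.64 CPM of EGR2 and 2.91 CPM of EGR3 at 6 months, which overlapped the somatotroph-like levels of 4.98 and 2.74. At 3 months they had 38.8 CPM of EGR2 and 67.4 CPM of EGR3, against 3.08 and 5.68 in somatotroph-like cells, and those intervals did not overlap.

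EGR4, the least studied member of its family, was led among named classes by gonadotroph-like cells at 3 months but not at 6 months. At 3 months it stood at 118 CPM (112 to 123.5) in gonadotroph-like cells and 71.3 CPM (54.3 to 92.0) in corticotroph-like cells, followed by stem or folliculostellate-like cells at 24.4. The other named classes lay between 0 and 18.1 CPM. Gonadotroph-like cells were 7.7% of the 3-month cells and held 38.1% of its EGR4 UMIs. At 6 months it was low in all 9 named classes: lactotroph-like cells had 6.4 CPM, somatotroph-like cells 4.98 and gonadotroph-like cells 3.74, with overlapping intervals between neighbours. Lactotroph-like cells then held 66.3% of EGR4 UMIs, and were 39.0% of the cells and 60.7% of all UMIs. Barcodes under 1000 UMIs, which were left out of the classes, had 6.89 CPM of EGR4 (2.97 to 13.6) at 6 months and 18.1 CPM (12.4 to 25.6) at 3 months. The 6-month level in gonadotroph-like cells (2.21 to 5.91) overlapped that of these barcodes, and the 3-month level lay above it.

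Among named classes NR4A1 was highest in macrophage or monocyte-like cells. Its level there was 384.5 CPM (370.3 to 399) at 6 months and 1672 CPM (1638 to 1706) at 3 months. Gonadotroph-like cells ranked 5 of 9 at 6 months, with 124 CPM (114 to 134), overlapping B or plasma-like cells at 128 and cycling-like cells at 115. At 3 months only macrophage or monocyte-like cells ranked above them among named classes, and they had 507 CPM (495 to 519). T or NK-like cells were below, at 387 CPM. The unnamed cluster 4, described below, had 696.3 CPM of summed NR4A genes at 6 months and 1377.4 at 3 months. NR4A1 made up 75.0% and 83.6% of that. Unnamed cluster 1 had 638.1 and 591.6 CPM, of which NR4A1 made up 64.88% and 70.92%. NR4A2, known for its part in dopamine neuron development, was highest in T or NK-like cells, at 649 and 692 CPM. NR4A3, a relative often induced in T cells and macrophages, was highest in macrophage or monocyte-like cells, at 339.5 and 387 CPM. Both were low in gonadotroph-like cells, where NR4A2 stood at 54.6 and 53.5 CPM and NR4A3 at 30.9 and 13.8 CPM. The corticotroph-like cells, found in number only at 3 months (214 cells), had 278 CPM of NR4A1 and 59441 CPM of POMC.

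**Figure D1:**
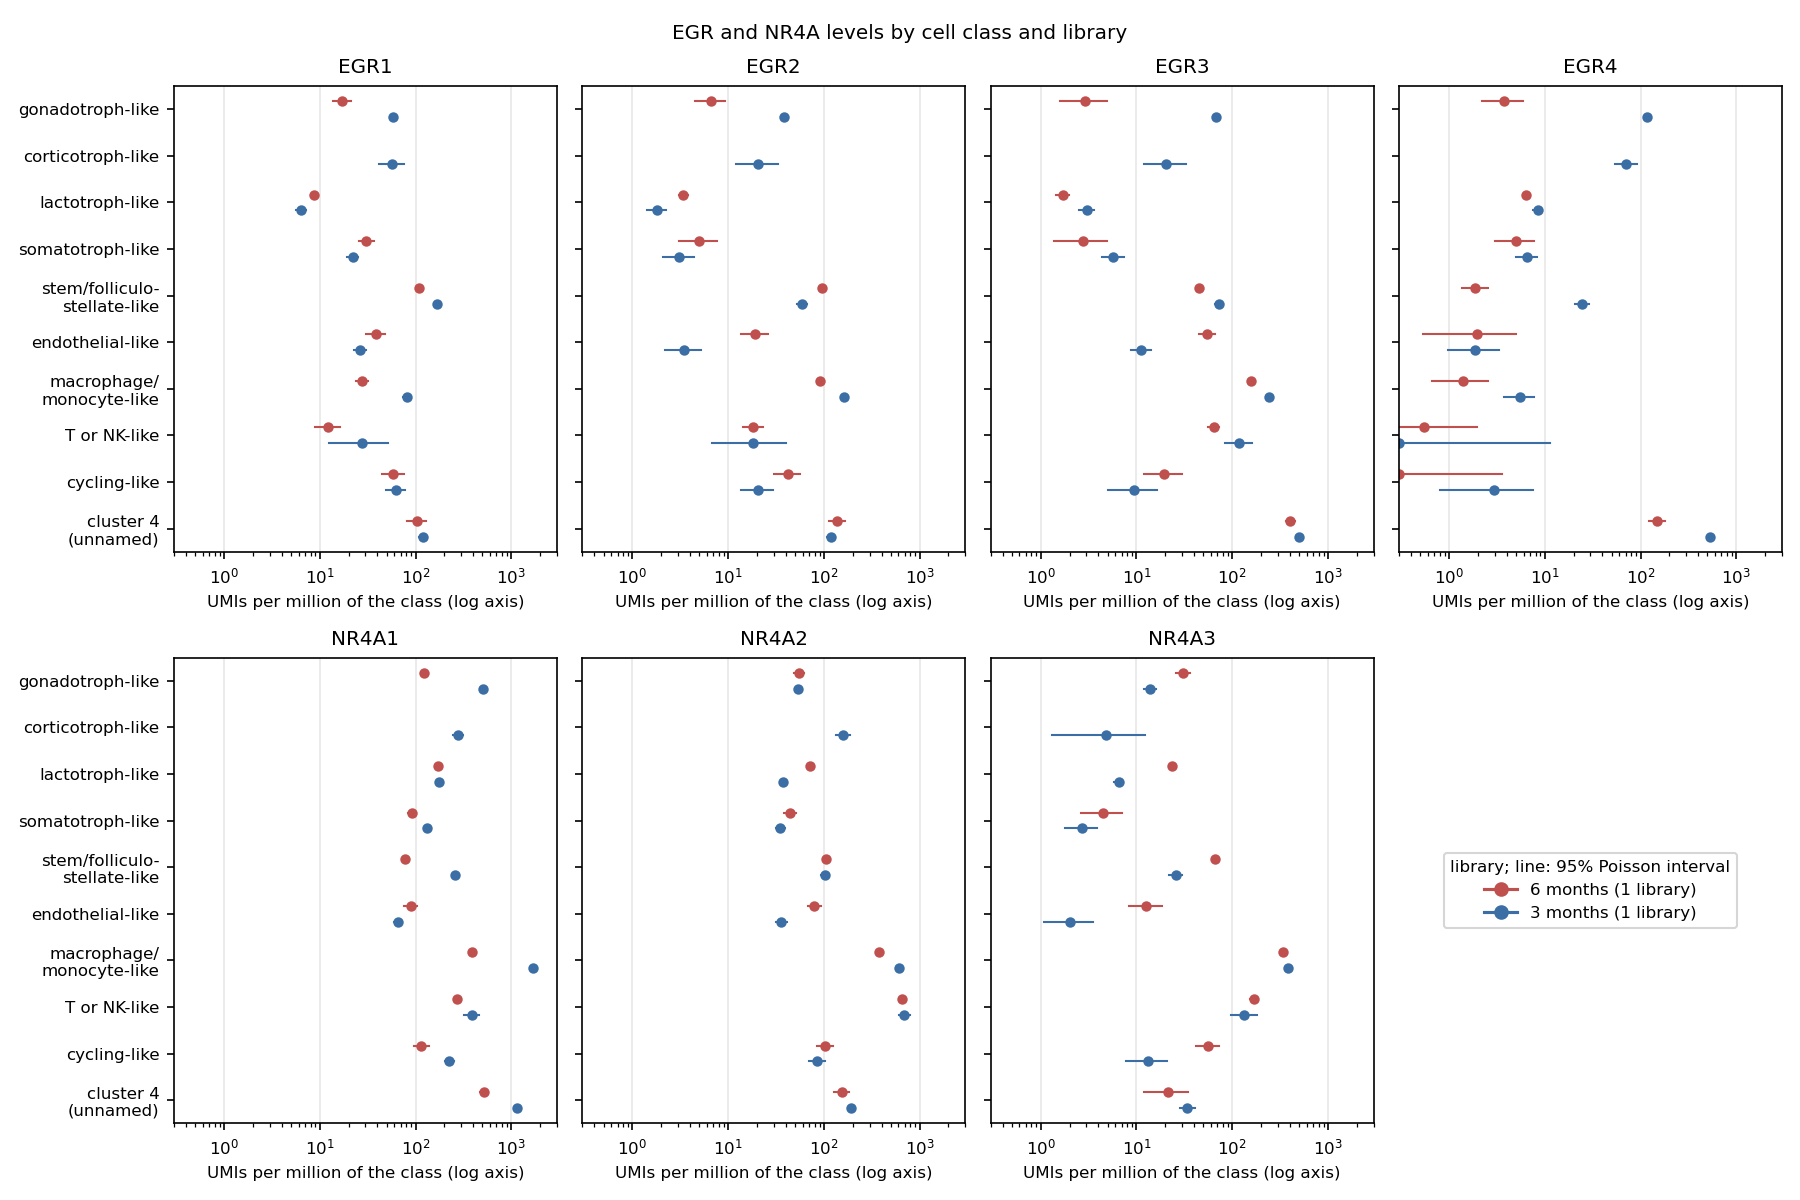
CPM of each gene (log axis) in each class with at least 50 cells, with the 6-month library in red above the 3-month library in blue and 95% Poisson limits as lines. Points on the left edge had 0 UMIs. EGR4 stands at 118 CPM in 3-month gonadotroph-like cells and 3.74 CPM in 6-month ones, while EGR3 and NR4A1 lead in macrophages and in the unnamed cluster 4.

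Whether gonadotrophs stand out from the rest of the gland was asked within each library, where handling was shared. A gene was called when it differed at least 2-fold with at least 100 UMIs over both sides. At 6 months none of the 7 genes was called higher in gonadotroph-like cells than in all other cells, and 3 were called lower: EGR3 (log2 ratio -2.97, -3.85 to -2.23), EGR2 (-1.94) and NR4A2 (-1.05). Of 14035 genes measured, 6.88% were called higher and 21.5% lower. At 3 months EGR4 was called higher, with a log2 ratio of 2.36 (2.27 to 2.45), and NR4A3 lower (-1.11). The background was 7.28% higher and 21.8% lower. NR4A1 (0.96), EGR2 (0.72) and EGR3 (0.70) were above the other cells by less than 2-fold, and EGR1 was level with them (0.06, -0.05 to 0.17). The median over the 7 genes was -0.86 at 6 months, against -0.09 over all genes, and 0.70 at 3 months, against -0.05. Without cluster 28, a gonadotroph cluster described below, EGR3 (-1.96) and NR4A3 (-1.77) were lower than other cells by at least 2-fold at 6 months, and EGR2 (-0.99), NR4A2 (-0.76) and EGR1 (-0.0019) were not. The calls depended on the resolution of the clustering. At resolution 0.5, 2 genes at 6 months and 4 at 3 months were called higher, and the reason was not tested. The share of all genes called at that resolution is not given here.

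A list of 40 genes known to be induced by tissue dissociation (FOS, JUN, ATF3, heat shock genes and others, without the 7) had 39 in the table. In gonadotroph-like cells at 6 months none of the 39 was at least 2-fold above the other cells and 22 were below. At 3 months FOSL1 alone was above (1.28) and 14 were below. The median over the list was -1.26 and -0.52. FOS, the AP-1 gene most used as a sign of handling, had log2 ratios of -1.12 and -0.46. Against the genes that mark the class, the members' differences were small: GNRHR had log2 ratios of 9.22 and 7.39.

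**Figure D2:**
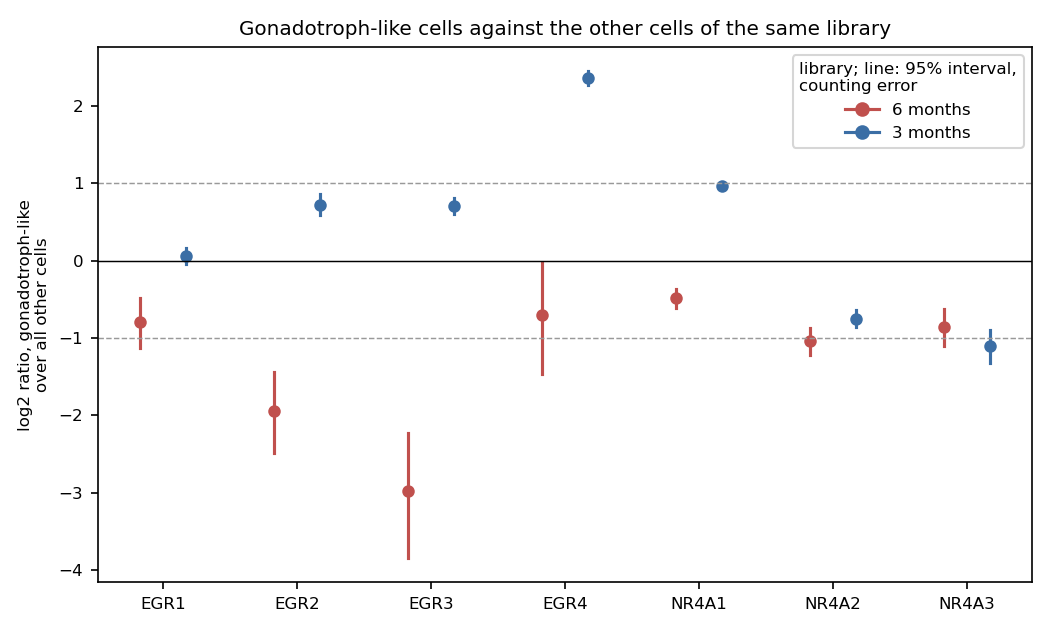
Log2 ratio of gonadotroph-like cells over all other cells of the same library for each gene, with the 6-month library in red left of the 3-month library in blue, 95% limits as lines and dashed lines at 2-fold. All 7 points lie below 0 at 6 months, while EGR4 lies at 2.36 at 3 months.

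Between the ages, gonadotroph-like cells at 6 months had lower levels of 5 of the 7 genes and a higher level of 1 by the 2-fold rule. Of 9633 genes measured in these cells, 5.62% were called lower and 3.81% higher. The median log2 ratio of 6 over 3 months was -1.87 for the 7 genes and -0.0047 over all genes. EGR1 had 83 UMIs at 6 months and 789 at 3 months, with a log2 ratio of -1.58 (-1.93 to -1.26). EGR2 had 32 and 530 UMIs and a log2 ratio of -2.38 (-2.95 to -1.87). EGR3 had 14 and 921 UMIs and EGR4 18 and 1608. Their log2 ratios were -4.37 (-5.25 to -3.62) and -4.82 (-5.57 to -4.15). The intervals of the levels did not overlap between the libraries for any of the 4 EGR genes, and the 3-month library was the higher each time.

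The NR4A genes did not move as one. NR4A1 had 596 UMIs at 6 months and 6933 at 3 months, with a log2 ratio of -1.87 (-1.997 to -1.753). NR4A2 was level, at 263 and 731 UMIs and a log2 ratio of 0.19 (-0.02 to 0.40). NR4A3 was higher at 6 months, with 149 and 188 UMIs and a log2 ratio of 1.33 (1.01 to 1.65). Within the NR4A UMIs of gonadotroph-like cells, NR4A1 made up 59.1% at 6 months and 88.3% at 3 months.

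Most of the handling genes that were called lay in the same direction. Of 37 measured in gonadotroph-like cells, 14 were called lower at 6 months and 3 higher, with a median of -0.65. The lower ones included ATF3, a stress-induced factor (-3.50), the mRNA decay factor ZFP36 (-2.83), IER2 (-2.79), FOSB (-2.28), SOCS3 (-2.27), FOS (-1.73) and JUNB (-1.66). The heat shock gene HSPA1A (1.94), FOSL2 (1.82) and IER3 (1.03) were higher. The summed list stood at 10335 CPM at 6 months and 18490 CPM at 3 months. The part of handling in the age difference was not tested.

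Genes of the GnRH pathway showed a mixed pattern. Of 33 measured from a list of 41, 5 were called lower at 6 months and 3 higher, with a median of -0.17. ARC, a synaptic immediate early gene, was lower (-2.42), as were RGS2, a G protein signalling inhibitor (-2.29), DUSP5, an ERK phosphatase (-2.30), SRF (-1.61) and PRKCA (-1.50). TGIF1 (2.35), NAB1 (1.2) and SPRY2 (1.15) were higher. The receptor gene GNRHR stood at 351 CPM of the class at 6 months and 368 at 3 months, and at a log2 ratio of 0.09 (0.01 to 0.17) after the scaling used for all ratios. LHB (0.36) and CGA (0.41), hormone subunit genes, also stayed under 2-fold, as did PITX1 (-0.85). FSHB, the follicle-stimulating hormone beta subunit gene, was at -0.32 in the class but at 1.15 (1.111 to 1.195) without cluster 28, described next, and was then called higher. Of 14 measured partners and corepressors, 2 were called higher, NAB1 and NR3C1 (1.32), and none lower, while NAB2 was at 0.95 (0.67 to 1.23). Without cluster 28 neither was called, and of the GnRH list 5 were called lower and FSHB alone higher. TGIF1 (0.27), NAB1 (0.34) and SPRY2 (-0.92) were then under 2-fold, as was SRF (-0.90), and PRKCA had too few UMIs for a call. ARC (-1.75), RGS2 (-2.58) and DUSP5 (0 UMIs at 6 months and 172 at 3 months) were still lower, beside DUSP6 (-1.67), an ERK phosphatase, and SPRY1 (-1.84), an inhibitor of receptor kinase signalling. NR5A1 had 1 UMI at 6 months and 30 at 3 months, too few for a call.

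**Figure D3:**
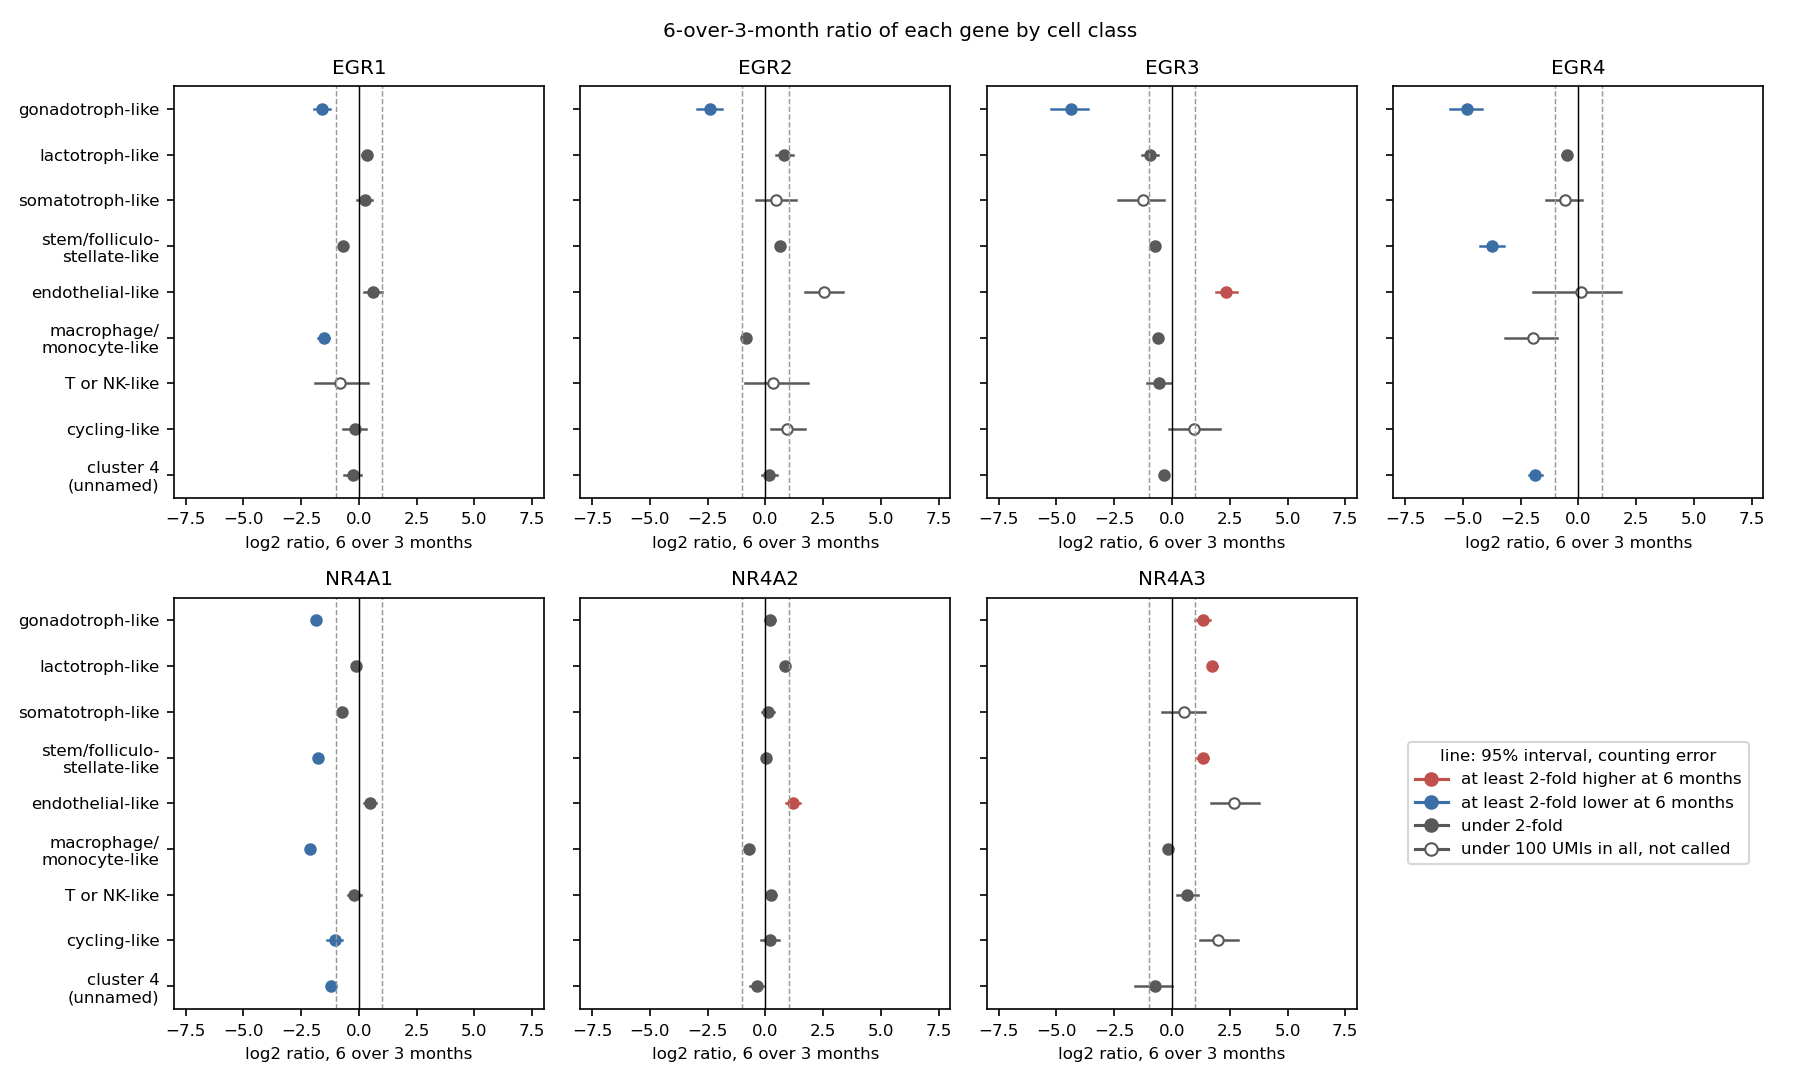
Log2 ratio of 6 over 3 months for each gene by class, with 95% limits as lines and dashed lines at 2-fold. Blue points are called lower and red points higher at 6 months, grey points are under 2-fold, open points had under 100 UMIs and classes with 0 UMIs in a library are left out. Gonadotroph-like cells lie at -4.37 for EGR3, where endothelial-like cells lie at 2.35.

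The gonadotroph-like cells came from 3 clusters that the libraries filled unequally. Cluster 28, led by IGFBP1 and NPPC, had 142 cells at 6 months and 1 at 3 months. Cluster 15, led by FSHB, MSMB and BST1, had 86 and 888 cells, and cluster 13 had 33 and 301. Cluster 13 was shallow, at a median of 2356 and 1980 UMIs a cell, and had 2 EGR UMIs in all at 6 months. At 6 months cluster 28 had 9.73 CPM of EGR1 (6.66 to 13.7) and cluster 15 had 35.4 CPM (26.1 to 46.7), without overlap. NR4A1 was at 89.4 CPM in cluster 28 and 211 in cluster 15, whereas NR4A3 was at 36.8 CPM (30.5 to 44.0) and 18.0 CPM (11.7 to 26.6). Summed handling genes were at 8440 CPM in cluster 28 and 15338 in cluster 15, and their part in these differences was not tested. FSHB was at 31.0 and 4081 CPM, and GNRHR at 387 and 291. In 3-month cluster 15 FSHB was at 1704 CPM and GNRHR at 383.

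Without cluster 28 the age contrast was smaller. EGR1 moved to a log2 ratio of -0.79 (-1.22 to -0.38) and NR4A3 to 0.42 (-0.21 to 0.99), so neither was called. EGR2 (-1.43), EGR3 (-3.36), EGR4 (-4.17) and NR4A1 (-1.36) remained lower, and NR4A2 stood at 0.48. The background was then 4.13% lower and 1.17% higher. Within cluster 15 alone the same 4 genes were lower, EGR4 with 10 UMIs at 6 months and 1589 at 3 months, or 7.21 and 123.2 CPM. In that cluster 4.21% of genes measured were called lower and 1.16% higher. Handling genes without cluster 28 gave 9 lower and 1 higher of 36 measured.

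Within gonadotroph-like cells the RNA was uneven from cell to cell. To compare libraries of unequal depth, each cell was thinned to 2000 UMIs, which left 244 of 261 cells at 6 months and 1021 of 1190 at 3 months. EGR1 was then found in 3.69% of cells at 6 months and 9.60% at 3 months, and in 22.6% and 37.6% before thinning. EGR4 was found in 0 of 244 cells and in 13.5% (11.5% to 15.8%) of 1021, and in 4.21% and 28.6% before thinning. A count of 0 of 244 allows a share of up to 1.23% of cells with a UMI at 2000 UMIs a cell, not of cells that express the gene. NR4A1 was found in 18.0% and 49.4%, NR4A2 in 9.02% and 9.50%, and NR4A3 in 6.15% and 1.67%. No class is known to lack these genes. For scale, EGR4 was found in 0.279% of thinned endothelial-like cells at 6 months and 0.291% at 3 months, and NR4A1 in 13.6% and 10.7%. Endothelial-like cells had median depths of 3328 and 2750.5 UMIs before thinning, with EGR4 in 0.457% and 0.64% of cells. The 3-month share of EGR4 in thinned gonadotroph-like cells lay above the endothelial share, and at 6 months thinned counts were too few for that comparison.

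EGR4 RNA was concentrated in few cells. At 3 months 28.6% of gonadotroph-like cells had at least 1 EGR4 UMI, 9.50% had at least 5 and 3.95% at least 10, and 1 cell had 40. The 10% of cells with the most EGR4 UMIs held 75.6% of them before thinning, and 67.0% within cluster 15. The share in the whole class was 91.5% for NR4A3, 78.8% for EGR3, 64.5% for EGR2 and 58.5% for NR4A2. It was 47.1% for EGR1 and 38.4% for NR4A1. This share also depends on the depth of the cells and on how rare the RNA is. The ratio of variance to mean over thinned cells, which is 1 for random counts, was 2.17 for EGR3, 2.08 for NR4A1 and 1.96 for EGR4. It was 1.55 for NR4A2, 1.44 for EGR2, 1.22 for EGR1 and 1.09 for NR4A3. At 6 months the highest cell had 4 UMIs of EGR4, 4 of EGR3 and 32 of NR4A1.

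The genes tended to be found in the same cells at 3 months. EGR3 and EGR4 were both found in 35 thinned cells, 2.85 times the 12.3 that independent genes would give. EGR1 and EGR4 shared 28 cells (2.11 times), EGR2 and EGR3 14 cells (2.09 times) and EGR1 and NR4A1 66 cells (1.36 times). EGR1 and NR4A2 shared 11 cells (1.18 times). These ratios pool clusters of unequal level. Within cluster 15 they were 2.52 for EGR3 with EGR4, 1.89 for EGR1 with EGR4 and 1.9 for EGR2 with EGR3. EGR1 there stood at 1.24 with NR4A1 and 1.07 with NR4A2. At 6 months the counts were too low for this comparison except for NR4A1 and NR4A2, which shared 10 cells (2.52 times). At least 3 of the 7 genes were found in 1.64% of thinned gonadotroph-like cells at 6 months and in 9.89% at 3 months. None was found in 69.3% and 39.3%. Any EGR gene was found in 6.15% and 29.3%, and any NR4A gene in 28.3% and 52.8%. Macrophage or monocyte-like cells with at least 3 of the genes made up 21.6% and 45.2%, and lactotroph-like cells 0.633% and 0.944%.

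**Figure D4:**
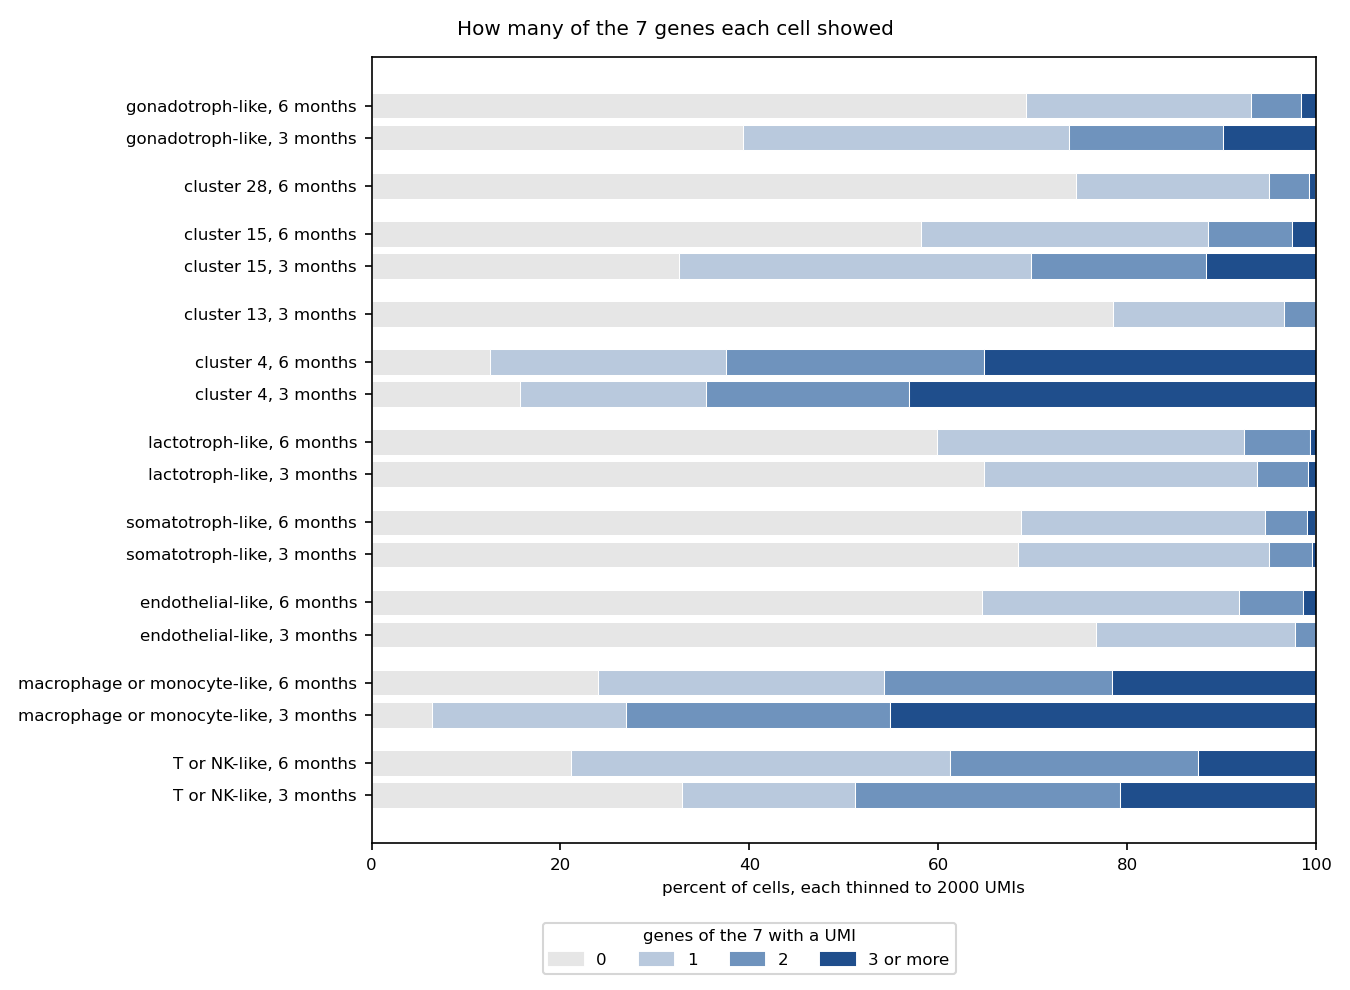
Percent of cells with 0, 1, 2 or at least 3 of the 7 genes, each cell thinned to 2000 UMIs, with 6 months above 3 months for each class or cluster. Bars for clusters 13, 15 and 28 split the gonadotroph-like cells. Cells with at least 3 genes are 1.64% and 9.89% of gonadotroph-like cells, 35.2% and 43.2% of cluster 4.

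The members were then read against each gonadotroph-like cell's own handling level, the summed share of the 39 handling genes. Ranges of that level were set at 5000, 10000 and 20000 CPM, and a range is not a cell type. At 6 months 16.1% of the cells fell below 5000 and 9.96% above 20000, against 14.7% and 36.5% at 3 months. In the 3-month library all 7 genes were higher in each higher range. At 6 months this held for 5 of them and not for EGR3 and NR4A3. Below 5000 CPM the libraries overlapped for all 7 genes, with EGR4 at 0 UMIs in both and NR4A1 at 33.7 CPM (19.6 to 54.0) at 6 months and 28.1 CPM (18.7 to 40.7) at 3 months.

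At like levels of the summed handling genes the libraries still differed for some of the genes, in both directions. Between 5000 and 10000 CPM, with handling at 7615 CPM at 6 months (117 cells) and 7628 CPM at 3 months (224 cells), the 4 EGR genes and NR4A1 were lower at 6 months without overlap. EGR4 there stood at 1.93 CPM (0.626 to 4.50) and 23.0 CPM (17.6 to 29.5). NR4A3 was higher at 6 months, at 23.1 CPM (17.7 to 29.8) and 9.05 CPM (5.80 to 13.5), and NR4A2 overlapped. Most of the 117 cells at 6 months were outside cluster 15, whereas 144 of the 224 at 3 months were in it. Cluster and library cannot be told apart in this range. Between 10000 and 20000 CPM, with summed handling levels of 13238 CPM at 6 months (76 cells) and 14700 at 3 months (357 cells), EGR4 stood at 2.85 CPM (0.778 to 7.31) and 63.2 CPM (56.4 to 70.5). In that range NR4A1 stood at 131 CPM (112 to 151) and 446 CPM (427.5 to 465), and EGR3 at 2.85 and 51.5 CPM. EGR1 was at 19.98 CPM (13.3 to 28.9) and 48.2 CPM (42.3 to 54.7). None of these 4 pairs of intervals overlapped. NR4A3 lay the other way, at 49.2 CPM (38.3 to 62.3) and 13.3 CPM (10.3 to 16.9). Above 20000 CPM, with handling at 29799 CPM (26 cells) and 30871 CPM (434 cells), EGR4 stood at 28.2 CPM (12.9 to 53.6) and 244 CPM (230.3 to 258). EGR1 there was at 72.2 CPM (45.8 to 108) and 93.01 CPM (84.8 to 102), and EGR2 at 50.2 and 74.2 CPM, with overlapping intervals for both. NR4A1 was at 609 CPM (526 to 701) and 842 CPM (817 to 868), without overlap. NR4A2 was higher at 6 months, at 182 CPM (138 to 235) and 78.4 CPM (70.9 to 86.5). All 26 of the 6-month cells above 20000 CPM were in cluster 15. In cluster 15 the range from 10000 to 20000 CPM gave EGR4 0 UMIs in 32 cells at 6 months, which allows up to 5.43 CPM, and 62.8 CPM in 302 cells at 3 months. In those cells NR4A1 was at 101.3 CPM (76.5 to 131.5) and 449 CPM (430.3 to 468), and EGR3 at 3.62 and 51.6 CPM, without overlap. EGR1 overlapped there, at 30.8 CPM (17.9 to 49.2) and 48.7 CPM (42.7 to 55.3), as did NR4A3, at 14.5 and 13.7 CPM. The rest of the 76 cells at 6 months in this range were outside cluster 15. The ranges matched the sum of the list and not each of its genes. Between the ages ATF3 (-3.50), IER2 (-2.79) and FOS (-1.73) were lower in gonadotroph-like cells at 6 months, and HSPA1A (1.94) was higher. An equal sum can therefore hold unequal levels of single handling genes. The handling genes also respond to hormone signals, and whether a match on them removes handling was not tested.

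**Figure D5:**
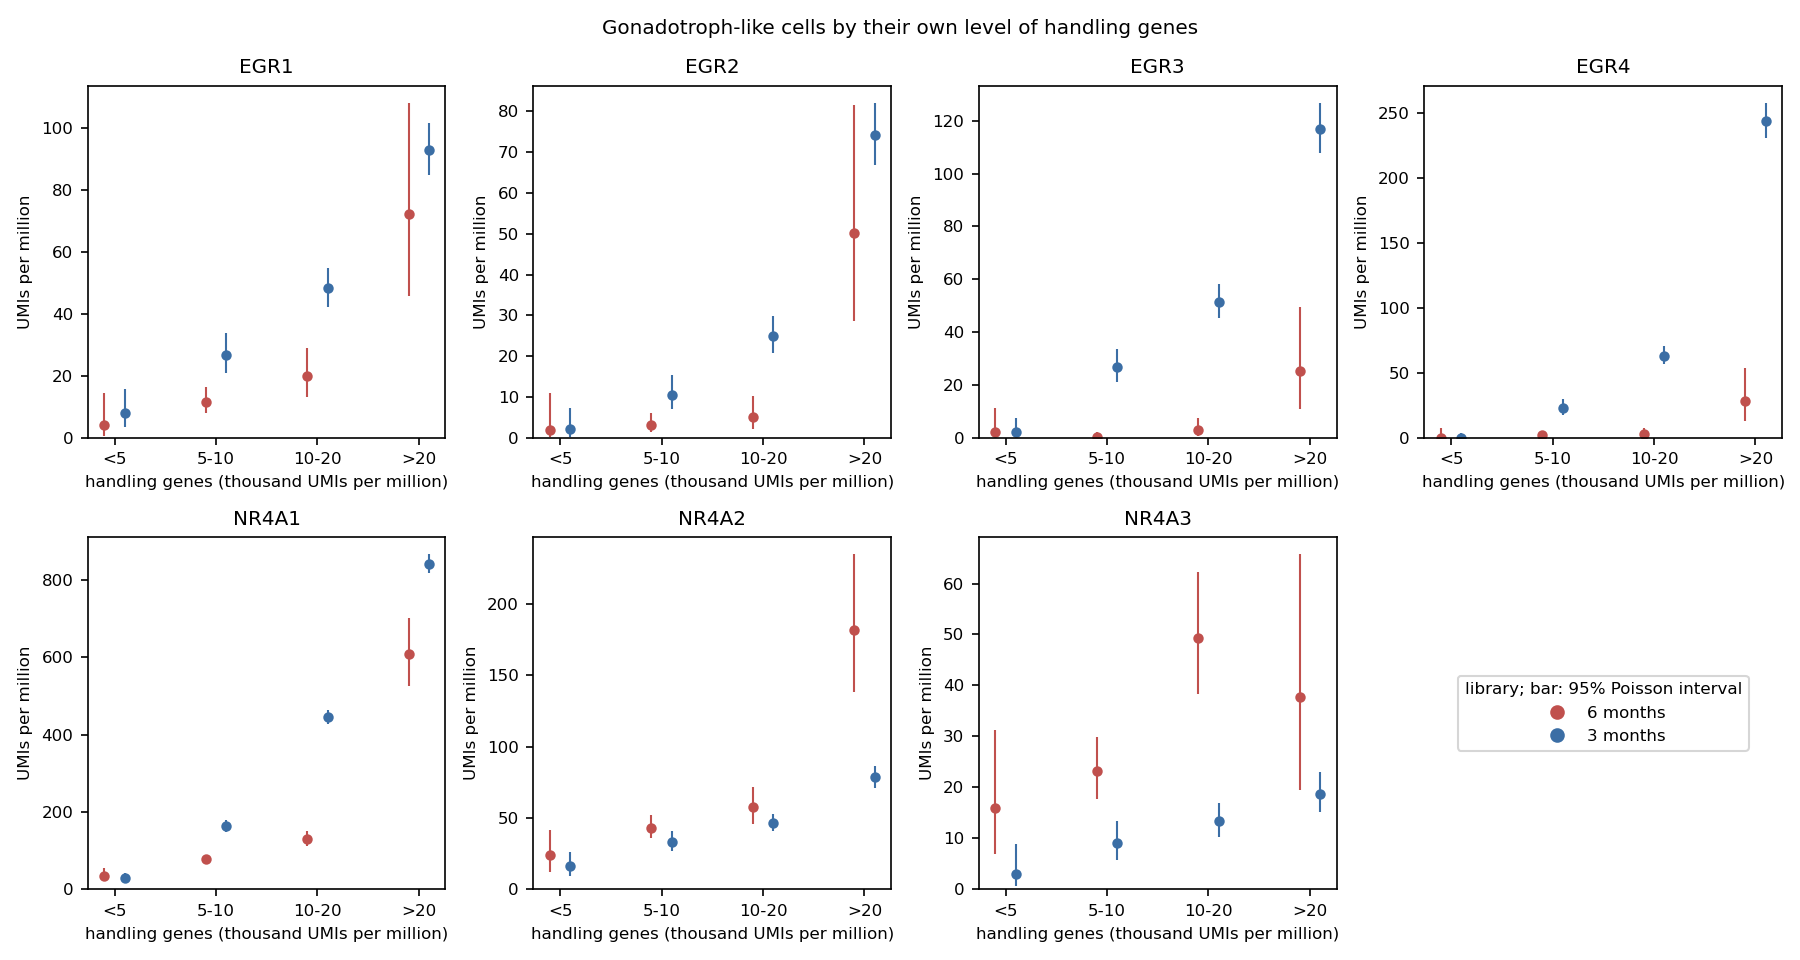
CPM of each gene in gonadotroph-like cells, in 4 ranges of the cell's summed handling genes (axis in units of 1000 CPM), with the 6-month library in red left of the 3-month library in blue and 95% Poisson limits as bars. EGR1 overlaps between libraries above 20000 CPM, while EGR4 stands at 28.2 and 244 CPM there.

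EGR RNA was also set against handling RNA in every class. There were 2.95 EGR UMIs per 1000 handling UMIs in gonadotroph-like cells at 6 months and 15.2 at 3 months. Corticotroph-like cells at 3 months had 16.1. Apart from these, the named classes with at least 50 cells ranged from 1.44 to 7.27 at 6 months and from 1.88 to 6.58 at 3 months, and all kept cells had 5.32 and 7.07. For the EGR sum, the 3-month value in gonadotroph-like cells was therefore above those of all named classes but corticotroph-like cells. The 6-month value was within the range of the others. EGR4 made up 41.79% of that 3-month EGR sum. All 7 genes together stood closer to another class, at 46.3 UMIs per 1000 handling UMIs against 45.36 in T or NK-like cells at 3 months. EGR1 alone had 15.87 UMIs per 1000 FOS UMIs in 3-month gonadotroph-like cells, against 15.07 in cycling-like and 30.7 in corticotroph-like cells.

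A UMI of GNRHR, the GnRH receptor gene, marked 208 of the 261 gonadotroph-like cells at 6 months and 902 of the 1190 at 3 months. At 3 months cells with one had 58.0 CPM of EGR1 (53.9 to 62.4) and cells without had 53.7 (40.1 to 70.4). NR4A1 was at 510.1 and 470.0 CPM with overlapping intervals, while EGR4 was at 121 CPM (115 to 127) and 71.3 CPM (55.5 to 90.2). Cells with a GNRHR UMI were far deeper, at a median of 13692 UMIs against 2072, and depth and receptor RNA cannot be told apart in this split. Within cluster 15 at 3 months EGR4 was at 123.1 CPM in the 835 cells with a GNRHR UMI and at 126 CPM (94.3 to 164) in the 53 without. NR4A1 there was lower in cells with a GNRHR UMI, at 517 CPM (505 to 530) against 874.5 CPM (788 to 967.5), and so was EGR2, at 39.0 CPM (35.6 to 42.6) against 74.4 CPM (50.9 to 105). Median depth in that split was 14325 and 6809 UMIs. At 6 months EGR1 was at 16.3 and 25.8 CPM and NR4A1 at 119 (109 to 130) and 168 CPM (133 to 209).

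Other classes differed between the ages in their own ways. Stem or folliculostellate-like cells, all 7 genes measured, had lower EGR4 (-3.74) and NR4A1 (-1.78, -1.88 to -1.68) and higher NR4A3 (1.33) at 6 months, beside a background of 2.6% lower and 4.38% higher. Their EGR4 UMIs at 3 months lay almost wholly in 1 cluster, cluster 6, with 132 of 138. Within cluster 6 EGR4 had a log2 ratio of -1.25 and NR4A1 of -1.96, beside 4.07% of genes called lower and 1.5% higher. Cluster 3, which held 1878 of the 1955 cells at 6 months, had 33 and 6 UMIs of EGR4. EGR1 was lower by 2-fold within cluster 3 (-1.05), with backgrounds of 1.61% lower and 3.73% higher, but not in the class (-0.69). The class call of NR4A3 was not found within these clusters, at 0.82 (0.54 to 1.12) in cluster 3, and with 5 and 31 UMIs in cluster 6.

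Macrophage or monocyte-like cells, with 6 genes measured, had lower NR4A1 (-2.11, -2.18 to -2.05) and EGR1 (-1.53) at 6 months and none higher, with a background of 3.59% lower and 6.07% higher. Different clusters held this class at the ages, cluster 25 with 1023 cells at 6 months and cluster 5 with 1217 cells at 3 months. Within cluster 5, where 40 cells were from 6 months, NR4A1 stood at -1.63, with 16.3% of genes called lower and 2.16% higher. EGR1 was not called there, at -0.77 (-1.91 to 0.17) with 9 UMIs at 6 months. Within cluster 20 NR4A1 stood at -1.45, with 4.39% called lower and 26.1% higher. Their handling genes were lower too, at 54095 CPM at 6 months and 85221 at 3 months.

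Endothelial-like cells went the opposite way. Of 4 genes measured, EGR3 (2.35, 1.91 to 2.80) and NR4A2 (1.21) were called higher at 6 months and none lower, beside backgrounds of 3.11% and 3.06%. EGR3 had 112 UMIs in 438 cells at 6 months and 71 in 1874 cells at 3 months, and the log2 ratio was 2.40 within cluster 0 alone, with backgrounds of 3.17% higher and 3.35% lower. Of 38 handling genes measured in these cells 11 were called higher and 1 lower.

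Lactotroph-like cells, the most numerous named class at 6 months with 4931 cells, had 1 of 7 genes called, NR4A3 higher (1.75, 1.57 to 1.93), beside backgrounds of 2.27% higher and 4.32% lower. NR4A3 was called higher within each of their clusters 9, 10 and 11, with log2 ratios of 1.63, 1.18 and 1.02. The genes called higher in those clusters were 1.99%, 5.2% and 4.1% of those measured, and the genes called lower 7.1%, 1.5% and 1.81%. NR4A2 was at 0.86 in the class, and was called higher in clusters 9 (1.30) and 10 (1.38) but not in cluster 11 (0.39). EGR4 was at -0.50 in the class and was called lower in cluster 9, where it had 1 UMI at 6 months and 299 at 3 months. NR4A1 in these cells was level at 170.3 and 174 CPM. Cycling-like cells had NR4A1 lower (-1.05) of 3 genes measured, with backgrounds of 1.39% lower and 2.05% higher. No gene was called in somatotroph-like cells (3 measured, backgrounds of 0.498% higher and 1.82% lower) or in T or NK-like cells (4 measured, 12.8% higher and 1.92% lower). Over all kept cells EGR4 was lower (-2.28) and NR4A3 higher (1.17), with backgrounds of 7.08% lower and 4.57% higher.

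The highest EGR3 and EGR4 levels lay in an unnamed cluster, cluster 4, with 89 cells at 6 months and 455 at 3 months. It carried CHGA, SCGN and NEUROD1, neuroendocrine genes, at 5639, 1124 and 62.0 CPM at 6 months and 6623, 1011 and 70.2 CPM at 3 months. Its LHB, at 787 and 1909 CPM, was below the 33583 and 29233 CPM of gonadotroph-like cells. Of 8 corticotroph markers 4 were raised in it over both libraries. It stayed unnamed because the rule asked for POMC above the library mean at both ages, and its POMC, at 6.59 and 2088 CPM, was below that mean at 6 months. EGR4 itself was among its leading genes, although the clustering did not use it. EGR3 stood at 405 CPM (361 to 453) at 6 months and 498 CPM (475 to 522) at 3 months, and EGR4 at 149 CPM (122.8 to 179.2) and 525 CPM (501 to 549). Both genes were above every named class at both ages. Cluster 4 was 2.95% of the 3-month cells and held 44.1% of EGR4 UMIs and 31.4% of EGR3 UMIs of that library. EGR4 (-1.86, -2.15 to -1.59) and NR4A1 (-1.19) were called lower at 6 months of 7 measured, with backgrounds of 3.94% lower and 2.0% higher, while EGR1 (-0.27), EGR2 (0.18) and EGR3 (-0.35) were under 2-fold. There were 34.3 EGR UMIs per 1000 handling UMIs in it at 6 months and 40.8 at 3 months, and ARC was at 1762 and 880 CPM. Any EGR gene was found in 69.3% and 66.4% of its thinned cells.

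Across the 16 sums of 8 classes by 2 libraries, the genes whose log2 level was most like that of the 7 genes together were PTP4A1 (Pearson r 0.916), TCEAL1, TENT5C, CYRIB and LSP1, among 5672 genes. The correlation with the summed handling genes over the same sums was 0.916 for EGR3, 0.885 for EGR2 and 0.709 for NR4A2. It was 0.696 for NR4A3, 0.674 for EGR1, 0.505 for NR4A1 and -0.198 for EGR4. The sums share libraries and class depth, so these values are a description. From cell to cell within gonadotroph-like cells, the genes most like EGR1 were FOS (0.428), HSPA1A (0.386), NR4A1 (0.373), IRF9 and SIAH2 at 6 months, and JUNB (0.34), JUN (0.334), FOSB (0.316), FOS (0.315) and IER2 (0.311) at 3 months. With the summed handling genes, the cell-to-cell correlation at 3 months was 0.688 for NR4A1, 0.399 for EGR4, 0.377 for EGR1 and 0.339 for EGR2. It was 0.291 for EGR3, 0.286 for NR4A2 and 0.145 for NR4A3. At 6 months it was 0.532 for NR4A1 and 0.184 for EGR4. Such correlations, most of them weak, come from sparse counts and are a description only.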

How the data were processed

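The deposited values are UMI counts per gene and barcode, not normalized, which the authors made with Cell Ranger (version 5.0.0 per the submitters' processing notes, 5.0.1 per the file headers). The genome build is not given in the sources used here. A barcode needed 500 genes and 1000 UMIs to enter, Scrublet's doublet calls were left out, and cells were clustered in scanpy 1.11.5 (3000 variable genes, 30 components, 15 neighbours, Leiden resolution 1.0). Hormone, mitochondrial, ribosomal, member and handling genes took no part in clustering. A cluster was named from 145 fixed markers present in the table. The naming rule was written after the clusters were seen and was revised, and the ranges of handling level were set after values were seen.

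Counts were summed per class and library. Levels are UMIs per 1000000 UMIs of the class (CPM) with exact Poisson intervals, and ratios use edgeR 4.0.16 TMM effective library sizes with exact conditional binomial intervals. Shares have Clopper-Pearson intervals. All are at 95% and cover counting error only, and a count of 0 was bounded by 3 counts. A call is a ratio of at least 2-fold with at least 100 UMIs over both sides. DESeq2 1.42.0 size factors, UMI totals and other filters, resolutions and minimums were alternatives. The scripts' statistics were tested on simulated data.

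The 7 members and the gene lists were chosen with earlier results of these data known. From each list the genes with the interval bound farthest from 0 were named, up to 8. FOSL1, FOSL2, IER3, DUSP6, SPRY1, PITX1, POMC, FOS against other cells, and the genes that describe clusters 4 and 28 were named after their values were seen. With 1 library per age no paired or replicate analysis exists. No gene or promoter sequences were used here.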

Additional observations from a re-analysis of the deposited data

Results flagged for a closer look

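EGR3 was called in opposite directions in 2 classes between 6 and 3 months. Its log2 ratio was -4.37 in gonadotroph-like cells, where it had 14 UMIs at 6 months and 921 at 3 months. In endothelial-like cells it was 2.35, with 112 UMIs at 6 months and 71 at 3 months. With 1 library per age the difference between the classes was not tested.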

How the results depend on the processing

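The count of members at least 2-fold apart between the ages in gonadotroph-like cells was 6, and it was 6 under every setting listed at the outset that gave a value except resolution 0.5, where it was 5. It was 4 without cluster 28, an alternative chosen after seeing the data. Of all genes measured, 5.62% were called lower and 3.81% higher as reported, and 4.13% and 1.17% without cluster 28. Such shares are not given here for the other settings. At resolution 0.5 the members called above other cells numbered 2 at 6 months (0 as reported) and 4 at 3 months (1 as reported). In that setting EGR3 turned to a log2 ratio of 1.36 and EGR4 to 2.04 at 6 months. Subtracting free RNA gave 2 members above other cells at 3 months. As reported, 6.88% of all genes at 6 months and 7.28% at 3 months were called above other cells. Handling genes called between the ages numbered 17 as reported, 13 to 20 under the settings listed at the outset, and 10 without cluster 28. Across all settings the log2 ratio of 6 over 3 months in gonadotroph-like cells ranged from -1.84 to -0.79 for EGR1, from -6.51 to -1.28 for EGR3 and from -5.34 to -2.94 for EGR4. Leaving out every cluster with at least 90% cells of one library gave no value, because all 3 gonadotroph clusters are of that kind. No paired analysis was possible because each age has 1 library. The 6-month EGR3 and EGR4 values rest on 14 and 18 UMIs, so their ratios have wide intervals.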
